A study of Mus musculus with 4 samples.

Results

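The clustered protocadherin genes are arranged in 3 tandem groups on mouse chromosome 18, alpha, beta and gamma. Members were the protein-coding RefSeq genes (GRCm38.p6, the patch release of mm10) with Pcdha, Pcdhb or Pcdhg symbols ending in a number, with or without the C-type letter c. This gave 57 of 21887 protein-coding genes, 14 in alpha, 22 in beta and 21 in gamma. Pcdhgb8 is annotated as a transcribed pseudogene and was not a member. The rule used only names and positions, and no measured value.

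Chromatin bound by BRG1 or BRM, the alternative ATPases of the BAF (SWI/SNF) remodelling complex, was precipitated with the J1 antibody, which recognises both proteins. All libraries came from wild-type cortical neurons taken from E16.5 mouse embryos and grown for 6 days in vitro. One group stayed at the basal KCl level. The other received 50 mM KCl for 1 h to depolarize the cells, after 1 µM tetrodotoxin (TTX, a sodium channel blocker) and 100 µM APV (an NMDA receptor antagonist) from day 5. Whether basal cultures were given TTX and APV is not said in the labels. Each condition had 1 precipitated (IP) library and 1 input library, so no p-value was computed between conditions and no difference has a replicate check. The values are lists of islands, which are regions where the IP reads exceeded the control reads. The basal list held 711 islands and the KCl list 20966, with at least 18 and 20 IP reads in each island, respectively. The fold of an island is the authors' ratio of IP to control reads after scaling for library size. Brackets give its 95% exact (Clopper-Pearson) interval, which covers counting error only. Of 6 cortical neuron marker genes, 5 had a KCl island within 2 kb of a gene end, namely Tbr1, Slc17a7, Neurod6, Tubb3 and Map2, and Rbfox3 did not. Of 12 marker genes of astrocytes, oligodendrocytes, microglia and interneurons, 4 did (33.3%, at Slc1a3, Aqp4, Pdgfra and Dlx1), near the share of all protein-coding genes (25.2%), and their part in the results below was not tested. An island in a mixed culture does not tell more cells bound from more binding per cell.

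Clustered protocadherins are cell-surface adhesion proteins that give each neuron a molecular identity, used in self-avoidance of its branches and in neuronal survival. Each alpha or gamma gene begins with its own promoter and large variable exon, which is spliced to constant exons at the end of its cluster. Beta genes have no such constant exons. Most alpha, beta and gamma promoters are chosen at random in single neurons, through DNA looping by CTCF and cohesin to distant enhancers. The 5 C-type genes, which lie next to the constant exons, are regulated differently, and several are expressed in most neurons of a type. Because the constant exons are shared, the annotated alpha genes all ended within 1240 bp of each other and the gamma genes within 10 bp. Only the start is specific to a member, and islands were therefore assigned by the start.

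In depolarized neurons, the starts of the C-type genes Pcdhac2, Pcdhgc3 and Pcdhgc4 and of 1 beta gene, Pcdhb5, carried a BRG1/BRM island. None was called at the start of any of the 12 alternate alpha genes or the 18 alternate gamma genes. In all, 4 of 57 member starts (7.02%) lay inside or within 2 kb of a KCl island. The share was 22.7% over the 17492 protein-coding genes with a known strand. By type, it was 3 of 5 C-type starts, 1 of 22 beta starts and 0 of 30 alternate alpha and gamma starts. The 95% exact intervals of the C-type share (14.7 to 94.7%) and the beta share (0.115 to 22.8%) included the 22.7% of all genes. These intervals treat neighbouring genes of 1 locus as independent, although 1 stretch without islands can hold many starts, so they are no test of a difference. Outside the C-type, 1 of 52 members (1.92%) had an island at the start. All 4 starts lay inside an island rather than beside one. No basal island lay at any member start, where the share over all genes was 0.269%.

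**Figure D1:**
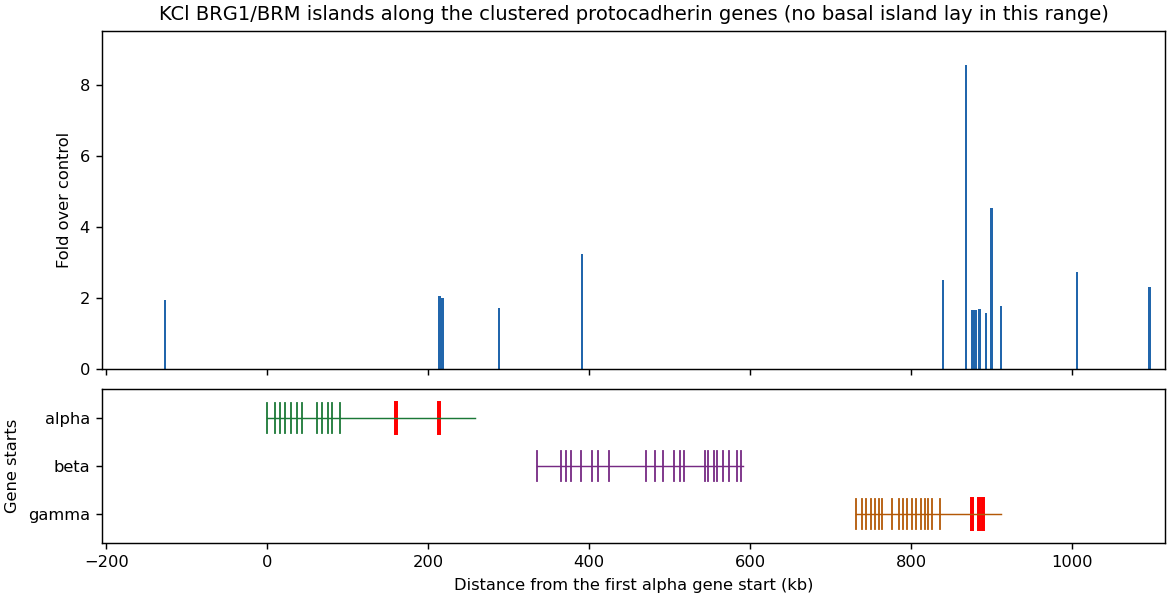
KCl BRG1/BRM islands along the locus. The horizontal axis is the distance in kb from the first alpha gene start, the upper panel shows each island's fold over control (islands narrower than 3 kb are drawn 3 kb wide), and the lower panel shows the start of each of the 57 genes, with the 5 C-type genes as thick red marks. Islands gather at the end of the gamma cluster, where the highest reaches 8.54-fold.

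The locus was followed from the first alpha start (chromosome 18, position 36930285) to 200 kb past the last gamma end (37841873). It held 13 KCl islands and 0 basal islands over 1112 kb. At the mean rate of all chromosomes, a stretch of that length would hold 8.66 KCl islands and 0.294 basal islands. The basal list is thus too short for its lack of calls here to be informative. The nearest basal islands lay 4925 kb beyond the gamma cluster (58 IP and 19 control reads) and 14088 kb before the alpha cluster (34 IP and 12 control reads). With no basal island in the locus, none of the 13 KCl islands could overlap one, and the 2.15% of all KCl islands that did gives no contrast.

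KCl islands were unevenly divided among the clusters. The gamma cluster held 7 in 180 kb (3.89 per 100 kb), and they covered 11.8% of its length. The alpha cluster held 2 in 259 kb (0.773 per 100 kb, 2.40% covered), and the beta cluster 1 in 256 kb (0.390 per 100 kb, 0.312% covered). The mean over chromosome 18 was 0.914 per 100 kb with 1.85% covered, and over all chromosomes 0.779 per 100 kb with 1.54% covered. The gap between alpha and beta held 1 island, the gap between beta and gamma 0, and the 200 kb after gamma 2. The density of the gamma cluster was thus above, and that of the beta cluster below, the mean of either background, on counts of 7 islands and 1 island.

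Of the alpha genes, Pcdhac2 was the only one with an island at its start. Pcdhac2, the last variable gene before the alpha constant exons, is required for the even spacing of serotonergic axons. Its start at 37143678 lay inside an island of 2600 bp (37142601 to 37145200) with 69 IP and 21 control reads, 2.06-fold enriched [1.25 to 3.54]. A second island of 3600 bp began 2.32 kb past the same start (37146001 to 37149600). It held 102 reads in the IP against 32 in the control, 2.0-fold [1.33 to 3.08]. Only 0.8 kb separated this pair, so BRG1/BRM enrichment extended from 1.08 kb before the Pcdhac2 start to 5.92 kb after it with 1 short break. The other alpha C-type gene, Pcdhac1, started 52.5 kb before the nearest KCl island and had none. Starts of the 12 alternate alpha genes lay 122 to 169 kb from a KCl island, the closest being Pcdha12 and the farthest Pcdha7. All 12 lay in 1 stretch of 339 kb without a KCl island, which held 13 member starts with that of Pcdhac1.

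Between the alpha and beta clusters, 27.7 kb past the alpha end, a KCl island of 2800 bp (37216601 to 37219400) held 110 IP and 40 control reads, 1.73-fold [1.19 to 2.55]. It lay 45.6 kb before the first beta gene. Enhancers of the alpha cluster are known in and beyond its constant exons, but their positions were not available here, and this island was not matched to one. Apart from read-through gene models that span the clusters, no protein-coding gene overlapped it.

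Pcdhb5 was the only beta gene with an island. Beta members are compact genes of 2340 to 5271 bp that share no exons, and Pcdhb5 is one of 22 similar adhesion proteins. The island was narrow, 800 bp (37319801 to 37320600), and reached from 0.580 kb before the Pcdhb5 start at 37320381 to 0.219 kb after it. It held 36 IP and 7 control reads, 3.23-fold [1.42 to 8.60], the widest interval among the islands at member starts. How reads matching several similar genes were treated is not given in the sources used here, so both the call at Pcdhb5 and the missing calls at other beta and alternate genes are uncertain in that respect. Neighbouring starts had no island, since Pcdhb4 lay 12.3 kb and Pcdhb6 13.3 kb from this island. Between this island and the next, at the far end of the gamma cluster, 448 kb held 35 member starts without a KCl island. They comprised 17 beta genes (Pcdhb6 to Pcdhb22) and all 18 alternate gamma genes. Pcdhb22, 198 kb from a KCl island, was the most distant member.

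**Figure D2:**
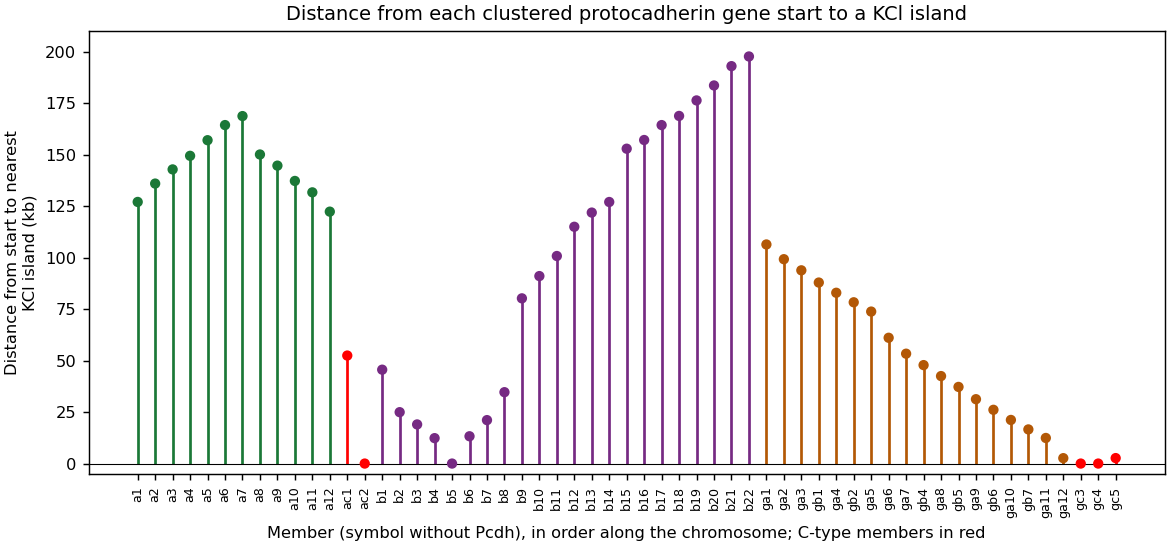
Distance in kb (vertical axis) from the start of each of the 57 members to the nearest KCl island, in order along the chromosome, with C-type members in red. The 4 points at 0 are Pcdhac2, Pcdhb5, Pcdhgc3 and Pcdhgc4, Pcdhga12 and Pcdhgc5 follow at 2.62 and 2.66 kb, and every other member lies more than 10 kb away.

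The gamma cluster carried its 7 islands in its last part only. From the island nearest to Pcdhga12 to the constant exons, they spanned 74.6 kb and covered 29.8% of it. Pcdhga12, the last alternate gamma gene, had no island within 2 kb. An island of 2600 bp (37768201 to 37770800) began 2.62 kb past its start, where 64 IP reads faced 16 control reads, 2.51-fold [1.44 to 4.66]. The other 17 alternate gamma starts lay 12.4 kb (Pcdhga11) to 106 kb (Pcdhga1) from a KCl island. Along these genes the distance shortened step by step towards the cluster's end, since this first island was the nearest for each of them.

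The island with the highest fold of the locus lay between Pcdhga12 and Pcdhgc3, 7.81 kb before the Pcdhgc3 start (37797201 to 37798600, 1400 bp). It held 68 IP and only 5 control reads, 8.54-fold [3.49 to 27.1], and 97.4% of all KCl islands had a lower fold. Its IP density of 48.6 reads per kb was the highest of the 13 and exceeded that of 75.8% of the list. Its control density of 3.57 reads per kb was the lowest of the 13, where the median of the list was 9.38. Its fold therefore combined a raised IP density with a low control count.

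The Pcdhgc3 protein binds Axin1 and dampens Wnt signalling, and it promotes dendrite branching. Its start at 37806410 lay in the widest island of the locus, 7600 bp (37804401 to 37812000), which reached from 2.01 kb before the start to 5.59 kb after it. With 174 IP and 66 control reads it was 1.66-fold enriched [1.24 to 2.23]. Pcdhgc4, the isoform needed for survival of cortical interneurons, started at 37815079 inside an island of 3400 bp (37813401 to 37816800) that was centred on it to within 0.021 kb. That island held 95 IP and 35 control reads, 1.70-fold [1.15 to 2.59], and lay 1.4 kb past the Pcdhgc3 island. The folds at both starts were alike in size, and their intervals overlapped broadly with that of Pcdhac2.

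Pcdhgc5, an isoform that appears later in postnatal development, started at 37819546 between islands. One of 3000 bp (37822201 to 37825200) began 2.66 kb past the start, with 78 IP and 31 control reads. Its fold of 1.58 [1.03 to 2.48] was the lowest of the locus. Another of 2000 bp began 9.06 kb past the start (37828601 to 37830600), in the part of the cluster towards the constant exons, and overlapped the long noncoding RNA gene Gm29994. It held 94 IP and 13 control reads, 4.54-fold [2.53 to 8.84], the second highest of the locus, and 87.5% of KCl islands had a lower fold. The last gamma island (37840601 to 37842800) covered the shared end of the gamma genes, where 54 IP reads faced 19 control reads, 1.79-fold [1.04 to 3.19]. One end of Diaph1, a formin gene, lay 0.801 kb beyond this last island, so the gamma end and Diaph1 cannot be told apart as its place.

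From the Pcdhgc3 start to the gamma end, 35.5 kb held 5 KCl island centres (14.1 per 100 kb), and islands covered 43.0% of it. Among the 2761 other protein-coding genes within 25% of the length of Pcdhgc3, 0 had as many KCl islands in their span. The most was 4, and 66.0% of these genes had none. Pcdhgc4 (26.8 kb, 4 islands) falls within this length range, and whether the most of 4 is its own was not checked. The Pcdhac2 span of 44.0 kb held 2 islands, and 6.93% of 2453 genes of like length had as many. The same 2 islands lay in the longer spans of Pcdhac1 and Pcdha1, where 25.9% and 66.4% of genes of like length had as many. These spans were singled out after their values were seen, and the islands of Pcdhgc3 include those in the spans of Pcdhgc4 (4 islands) and Pcdhgc5 (3 islands), which are nested in it.

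**Figure D3:**
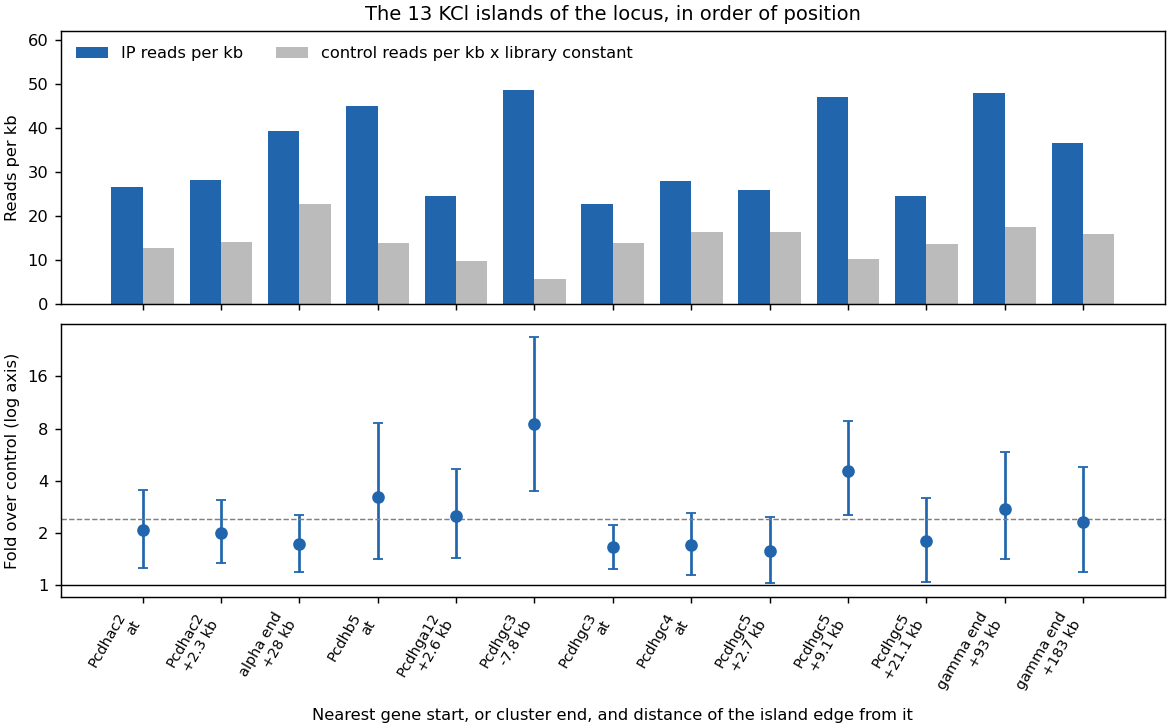
The 13 KCl islands of the locus in order of position. The upper panel shows IP reads per kb beside control reads per kb multiplied by the library constant of 1.59, and the lower panel shows the fold with its 95% exact interval on a log axis, with lines at 1 (solid) and at the list median of 2.40 (dashed). Islands at the starts of Pcdhac2, Pcdhgc3 and Pcdhgc4 lie at 2.06, 1.66 and 1.70, and the island before Pcdhgc3 stands highest at 8.54.

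Islands of the locus were wider and less dense than usual for the KCl list. Their median width was 2600 bp against 1600 bp, and their median IP density was 28.3 reads per kb (22.9 to 48.6) against 35.0. The median fold was 2.06 (1.58 to 8.54) against 2.40, and 8 of 13 reached a fold of 2 (61.5%), near the 66.6% of all KCl islands. The fold pooled over the 13 islands was 2.11 [1.86 to 2.41], from 1036 IP and 308 control reads. Pooled over the whole KCl list it was 2.25, inside that interval. All 13 had an interval above 1, but islands were called for an excess of IP reads, which favours this. The share of all KCl islands with such an interval was not computed. An FDR of at most 1e-05 was passed by 11 of 13, and by 76.9% of all KCl islands. Of the 13, 6 were near a protein-coding gene end, against 4856 of all 20966 KCl islands, and the medians above were not adjusted for this. KCl islands near gene ends in general had a median width of 2400 bp and a median of 29.4 IP reads per kb. Those away from gene ends had 1400 bp and 38.6 IP reads per kb. The median fold of all KCl islands near gene ends was 1.82 (interquartile range 1.58 to 2.19), and away from them 2.67 (2.02 to 3.77). The islands at Pcdhac2, Pcdhgc3 and Pcdhgc4 lay within the first range, and that at Pcdhb5 above it. The island before Pcdhgc3 and that over Gm29994 were both above the second. Of the other locus islands away from gene ends, those with folds of 2.0, 1.73 and 1.58 lay below the second range. Those with folds of 2.51 and 2.30 lay within it. The 7 locus islands away from gene ends had a median fold of 2.30, and the 6 at a gene end 1.92.

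In the 200 kb downstream of the gamma cluster, which in the mouse is known to hold enhancers acting on the beta and gamma genes, 2 KCl islands were called. The first (37935001 to 37936000) lay 93.1 kb past the gamma end, covered one end of Diaph1 and was 0.971 kb from Hdac3, a histone deacetylase gene. It held 48 IP and 11 control reads, 2.74-fold [1.40 to 5.85]. The second (38025001 to 38026200) lay 183 kb past the gamma end, in the long noncoding RNA gene Gm30093 and 25.5 kb from the nearest protein-coding gene end, that of Arap3. It held 44 IP and 12 control reads, 2.30-fold [1.20 to 4.79]. In the 200 kb before the alpha cluster there was 1 island, 1.74 kb from an end of Zmat2 (53 IP and 17 control reads, 1.96-fold [1.12 to 3.61]). Of the 15 other protein-coding genes in the flanks and gaps, 3 had a KCl island within 2 kb of an end (Zmat2, Diaph1 and Hdac3), and the genes between beta and gamma, Slc25a2 and Taf7, did not. The matching share was 25.2% of all protein-coding genes and 35.6% of those on chromosome 18.

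Related and similarly arranged gene groups were set beside the members, without a test. Non-clustered protocadherins, which have single promoters dispersed in the genome, had a KCl island within 2 kb of the start in 8 of 9 genes with a known strand, and near either end in 9 of 12. Their largest folds were those of Pcdh19 (1.79 [1.14 to 2.89]), Pcdh10 (1.72 [1.35 to 2.21]), Pcdh15 (1.68 [1.02 to 2.89]) and Pcdh17 (1.62 [1.29 to 2.06]). The others ranged from 1.43 (Pcdh8) to 1.58 (Pcdh18), and the interval of Pcdh20 (1.53 [0.926 to 2.60]) reached below 1. These 3 were named after their values were seen. The folds at the Pcdhgc3 (1.66) and Pcdhgc4 (1.70) starts lay among the largest of the group, and that at Pcdhac2 (2.06) above all of them. Pcdh10, which guides axons of the striatum, also had the only basal island of this group (1.84 [1.23 to 2.77]). Hox genes, another set of tandem clusters and silent in cortex, had a KCl island at 0 of 22 starts and at neither end of any of 39 genes. Olfactory receptor genes, which are also tandem and chosen at random in single cells, had one at 4 of 944 starts (0.424%). The 52 members outside the C-type had a share (1.92%) between those of the olfactory receptors and of all genes.

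**Figure D4:**
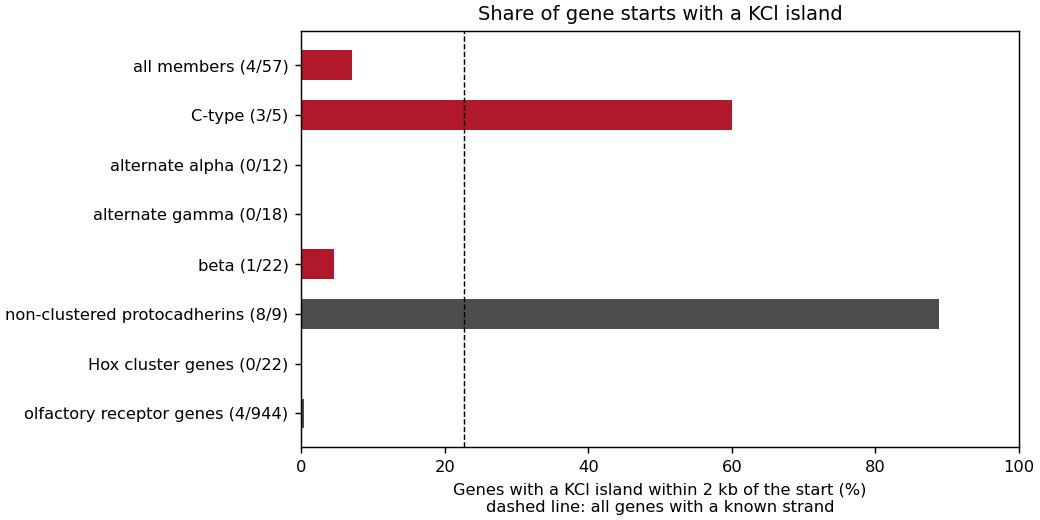
Share of genes with a KCl island within 2 kb of the start, in percent, for the members by type (red) and for 3 other gene groups (grey), with the number of genes in brackets and the share of all genes with a known strand, 22.7%, as a dashed line. The C-type genes (3 of 5) and the non-clustered protocadherins (8 of 9) lie above the line, and the alternate alpha, alternate gamma, beta, Hox and olfactory receptor genes below it. The 95% exact intervals, not drawn, include the line for C-type (14.7 to 94.7%), beta (0.115 to 22.8%) and alternate alpha genes (0 to 26.5%). Those of the other groups do not.

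Genes that act on or with the clustered protocadherins were counted near either gene end. Of 26 regulators of chromosome architecture and silencing, 9 had a KCl island and 0 a basal island, where all genes had shares of 25.2% and 0.411%. The intervals of 4 of the 9 reached below 1, namely those of Ctcf (1.48 [0.978 to 2.28]), the cohesin subunit gene Smc3 (1.40 [0.931 to 2.13]), Lbr (1.49 [0.955 to 2.39]) and Atf7ip (1.59 [0.817 to 3.30]), which were named after their values were seen. The largest folds were at Wapl, the cohesin release factor (2.83 [1.57 to 5.46]), Hdac3 (2.74), Ldb1, a looping cofactor (2.63 [1.51 to 4.86]), and Ehmt1, a histone methyltransferase (2.23 [1.31 to 4.0]). The island counted for Hdac3 is the one described above, which covers one end of Diaph1 and lies 0.971 kb from Hdac3. Of 24 intracellular partners and processing enzymes, 19 had a KCl island and 0 a basal island. The intervals of 3 of these reached below 1 (Abi1, Rock1 and Pdcd10, named after their values were seen). Adam10, the sheddase that cleaves the extracellular part (2.60 [1.71 to 4.08]), came first. It was followed by Ptk2b, the kinase PYK2 that binds the constant domains (2.51 [1.19 to 5.93]), the kinase gene Fyn (2.30 [1.35 to 4.12]) and the protein kinase C gene Prkca (2.07 [1.37 to 3.20]). An FDR of at most 1e-05 left 5 of the 26 and 12 of the 24. The share of all genes was not computed at this threshold, nor that of all islands with an interval reaching below 1. These counts therefore cannot be placed above or below a background.

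At the member starts, an FDR of at most 1e-05 left all 4 calls, whereas a fold of at least 2 left only Pcdhac2 and Pcdhb5. Shortening the KCl list to the 711 islands with the lowest p or the highest fold left 0 of the 57 members with an island at the start. The share of all gene starts under these stricter settings was not computed. Absence of a call does not show absence of BRG1/BRM, since the lists hold only regions that passed the authors' threshold.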

How the data were processed

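Per the submitters' processing notes, BWA aligned the reads to mm10 (GRCm38) and SICER 1.0 called islands. The treatment of reads with several matches, which matters for similar variable exons, is not given in the sources used here. The settings in the list names are W200, G600 and an FDR of 0.01. Each list rests on 1 IP library with a control. The authors deposited, per island, raw read counts of IP and control, a p-value and FDR, and a fold (ratio of IP to control divided by a constant of 0.880 for basal and 1.59 for KCl). Total depth is not given. Input samples had no separate file used here.

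Positions were made 1-based and compared with RefSeq genes of GRCm38.p6 with own code (Python 3.11.15, pandas 2.3.3, scipy 1.17.1), checked on simulated data. Member starts were the lower coordinate, since both clusters with shared exons end at the higher one, and the beta genes are transcribed in the same direction. Strand for other genes came from the RefSeq promoter table, which was matched by gene ID to 17492 genes and to none of the members. The planned promoter composition was not analysed here. Islands were assigned to regions by their centre. Members, lists and the rule for named genes (each member with an island, all C-type members, all islands, up to 4 per other list) were chosen with earlier results of these data known. Pcdhga12, Pcdhb22 and other members named for their distance were chosen after their values were seen. Alternatives changed the distance, threshold, minimum fold, list length and flank.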

Additional observations from a re-analysis of the deposited data

How the results depend on the processing

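Of 244 recalculations over 44 results, 187 stayed within 1.5 times the reported count or within the counting error of the fold. Reversal was not assessed. The 187 include counts of 0 under filters that can only remove islands, where no change was possible. The 4 member starts with a KCl island became 2 at a fold of at least 2 and 0 with the KCl list shortened by p or by fold. They became 23 when either gene end counted, since 1 island at the shared gamma end counts for all 21 gamma genes, and 36 for any island in the gene span, since the 2 islands at and after the Pcdhac2 start lie in all 14 alpha spans. The 13 KCl islands became 8 at a fold of at least 2 and 1 with the list shortened by p or by fold (a choice added after seeing the data), which in both cases lay in the gamma cluster. The basal counts of member starts and of islands in the locus stayed 0 under every alternative run, which was fixed in advance for the stricter filters. An FDR of at most 1e-05 lowered the regulators from 9 to 5 and the partners from 19 to 12, with no matching share over all genes computed. With 10 kb around the gene body, olfactory receptor genes with an island rose from 9 to 35 (KCl) and from 1 to 2 (basal). No island of the locus had 0 control reads, so the floor of 3 control reads changed nothing. No paired analysis was possible because each condition has 1 IP library. Depth limits the folds most where control reads are few, as in the 5 before Pcdhgc3 and the 7 at Pcdhb5.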
